A study of Homo sapiens with 16 samples.

Results

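Scr13 and Scr16 are 2 scrambled control clones of SH-SY5Y, an established human neuroblastoma cell line, and the comparison asked how far 2 control clones of a single line differed when neither had been edited at TRPM2. All 4 Scr16 libraries were set against all 4 Scr13 libraries, which are 8 of the 16 libraries of the series, and treatment entered the model as a block. Both clones had been transfected with a Cas9 vector carrying a scrambled guide and with the donor plasmid for GFP and puromycin resistance, selected with puromycin, and grown from single cells. Each was sequenced as poly(A)-selected RNA in untreated cells (2 replicates) and in cells given doxorubicin for 24 h (2 replicates). The sample labels and the legends that describe the sequenced cells give the dose as 0.3 µM, whereas the design text gives 3 µM. The other 8 libraries came from the clones KO11 and KO28, in which TRPM2 was targeted. They are used below for comparison and, in the response to doxorubicin, to choose 2 lists of genes. Each control arm is 1 clone, so a p-value here measures the spread between libraries and says nothing of clones that were not sampled, and the methods call the replicates biological without saying whether they were separate cultures.

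A line such as SH-SY5Y is a population of cells that differ from each other in copy number, in silenced genes and in state. Growing a colony from 1 cell fixes whatever that cell carried, so clones of a line can differ before any gene is edited. Neuroblastoma cells are known to take an adrenergic state, driven by HAND2 and GATA3, or a mesenchymal state, marked by VIM, FN1 and YAP1. The vector of the control clones differs from that of the knockout clones in its guide. The scrambled guide is not given in the sources used here. The TRPM2 guide is shown because the control clones lack it:

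TRPM2 guide: gaggaaagctggctcggagc

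Its 20 bases matched chr21:44353718-44353737 of GRCh38 on the plus strand, in exon 1 or 2 of 5 of the 8 annotated TRPM2 transcripts, and an AGG motif (the PAM that Cas9 needs) follows it. TRPM2, a calcium-permeable cation channel (chr21:44350163-44443081), was low in most control libraries. Scr13 had 3 and 2 reads of it in untreated cells and 1 and 1 after doxorubicin. Scr16 had 0 and 0 reads in untreated cells and 14 and 6 after doxorubicin, which is 1.33 and 0.390 normalized CPM. The 8 knockout libraries had 11 to 37 reads and 0.658 to 2.23 normalized CPM, so Scr16 doxorubicin replicate 1 lay within their range. Since a gene count covers the whole locus it does not check the deletion. TRPM2 was too low in the Scr libraries to be tested.

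The Scr libraries held 10481177 to 25086085 reads in genes. Scr13 had 25086085 and 17203411 in untreated cells and 16711477 and 16035639 after doxorubicin. Scr16 had 15839054 and 17330384 in untreated cells and 10481177 and 15510693 after doxorubicin. Levels are normalized CPM, the reads of a gene scaled to the size of its library after the authors' scaling, and 3 reads corresponded to 0.118 to 0.285 normalized CPM. Several adrenergic markers of the line were present. Mean levels over the 8 libraries were 1567 for HAND2, 675 for GATA3 and 1527 normalized CPM for DBH, which makes noradrenaline. TH, the rate-limiting enzyme of catecholamine synthesis, averaged 0.256 normalized CPM, which is near that floor. CHGA, another adrenergic marker, averaged 1.55. Of the mesenchymal markers, TWIST1 averaged 282, VIM 178 and FOSL1 0.779 normalized CPM. Of the myeloid markers listed, LYZ had 0 reads in the 8 libraries and SPI1 had 3. CD14, the most abundant of that list, averaged 0.859 normalized CPM. Of the epithelial markers, KRT8 had 0 reads, and CDH1, EPCAM, KRT18 and KRT19 had 43, 62, 126 and 218 reads. CLDN4, the most abundant of that list, averaged 3.54 normalized CPM. KRT19 reached the level for testing, at 1.89, 1.61, 3.03 and 2.21 normalized CPM in Scr13 (untreated 1 and 2, doxorubicin 1 and 2) and 0.921, 0.511, 0.855 and 1.49 in Scr16, and was not called (log2 difference -0.72, limma adjusted p = 0.688).

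Clones of a line can be told apart by genes that are on in 1 clone and off in the other. As labelled, 0 genes were off in every library of 1 control clone and on in every library of the other. Off meant at most 3 reads, and on meant at least 1 normalized CPM. The knockout pair also had 0 such genes. Several genes that separated the clones after doxorubicin did not follow the clone labels in the untreated cells, and those shown here were picked after their values were seen. CALHM2, a member of the calcium homeostasis modulator channel family (chromosome 10), was at 5.52 and 6.56 normalized CPM in Scr13 and at 0 and 0 in Scr16 after doxorubicin. In untreated cells it was at 0.236 and 6.85 in the libraries labelled Scr13 replicate 1 and 2, and at 6.44 and 0.511 in those labelled Scr16 replicate 1 and 2. Thus untreated replicate 2 of each clone was on the side of its own doxorubicin libraries and untreated replicate 1 of each clone was on the side of the other clone. SMIM10, a small membrane protein gene on chromosome X, showed the same arrangement in the opposite direction, with 3.70, 0.173, 0.119 and 0.0631 normalized CPM in the libraries labelled Scr13 untreated 1 and 2 and doxorubicin 1 and 2, and 0, 3.69, 3.23 and 4.67 in those labelled Scr16. Both genes were at 0 in all 8 knockout libraries.

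The arrangement was not limited to genes near the floor. KIF5B, a kinesin heavy chain that moves cargo along microtubules, stood at 286, 390, 434 and 405 normalized CPM in the libraries labelled Scr13 (untreated 1 and 2, then doxorubicin 1 and 2) and at 420, 251, 239 and 246 in those labelled Scr16. ITGB1, the beta-1 integrin subunit through which cells hold to matrix, stood at 320, 376, 417 and 385 in Scr13 and 441, 272, 295 and 267 in Scr16. GABRQ, a GABA-A receptor subunit, was at 7.44, 1.84, 0.475 and 1.01 in Scr13 and 1.72, 7.89, 9.22 and 9.09 in Scr16. In each of these 3 genes the 2 untreated replicate 1 libraries lay with the other clone, and the remaining 6 libraries separated without overlap.

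**Figure D1:**
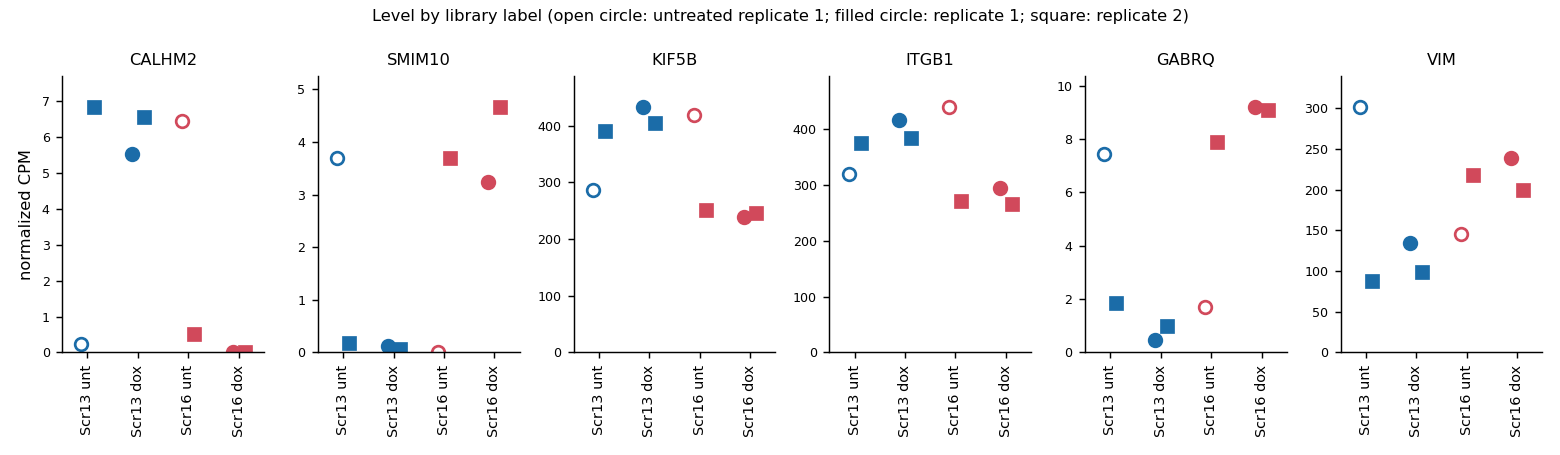
Levels of 6 genes in each Scr library (y axis, normalized CPM, from 0), by the clone and treatment on the label (x axis; unt, untreated; dox, doxorubicin; blue, Scr13; red, Scr16). Open circles are the untreated replicate 1 libraries, filled circles the doxorubicin replicate 1 libraries and squares the replicate 2 libraries; CALHM2 is at 0.236 in the open circle of Scr13 and at 6.44 in that of Scr16, on the side of the other clone.

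A count over genes gave the same picture for the first replicate of Scr13 and a less uniform one for that of Scr16. In 29 of the 14378 genes tested, the doxorubicin libraries of the clones were at least 1 apart on the log2 scale without overlap. Each untreated library was placed by the nearer clone mean. The library labelled Scr13 untreated replicate 1 was nearer Scr16 in 24 of the 29 genes, and the library labelled Scr16 untreated replicate 1 was nearer Scr13 in 17. Scr13 untreated replicate 2 was nearer its own clone in 20 and Scr16 untreated replicate 2 in 25. With a gap of 0.5, which 328 genes met, the libraries were nearer their own clone in 35.7% (Scr13 replicate 1), 58.8% (Scr13 replicate 2), 48.5% (Scr16 replicate 1) and 66.2% (Scr16 replicate 2). In the knockout clones 102 of 14513 genes tested met that gap. The 4 untreated libraries were nearer their own clone in 64, 60, 53 and 50 of the 102. In 26 of 26410 genes both doxorubicin libraries of 1 clone had at most 3 reads and both of the other at least 1 normalized CPM. Of these, 17 were on in Scr13 and 9 in Scr16. By the same rule the knockout pair had 2 genes on in KO11 and 3 on in KO28. Scr16 doxorubicin replicate 1 had the fewest reads, and the part of depth was not tested. The 26 genes did not place the untreated replicate 1 libraries with either clone, and they placed the replicate 2 libraries little better. The library labelled Scr13 untreated replicate 1 was nearer Scr13 in 13 and nearer Scr16 in 13. The one labelled Scr16 untreated replicate 1 was nearer Scr13 in 12 and nearer Scr16 in 14. Scr13 untreated replicate 2 was nearer Scr13 in 16 and nearer Scr16 in 10. For Scr16 untreated replicate 2 these counts were 12 and 14. These are counts over genes of the same libraries, and they are given as descriptions.

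Whether these 2 libraries carry each other's label, and at which step that could have happened, was not tested, and no library was moved to another group. For these reasons the calls are given with all 8 libraries as labelled, and again without the 2 untreated replicate 1 libraries, an alternative chosen after seeing the data; values with no other mention are from all 8. Both libraries are labelled Scr, so a comparison of knockout with control clones holds the same control libraries either way.

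Over all 14378 genes the libraries were compared by distance. The distance between a pair of libraries was taken as the root-mean-square difference in log2(normalized CPM + 1). It was 0.309 to 0.482 between replicates of 1 clone and treatment (4 pairs, median 0.383) and 0.301 to 0.533 between the clones under the same treatment (8 pairs, median 0.350). In untreated cells the medians were 0.351 for replicates and 0.339 between the clones, and after doxorubicin the order was the reverse, with 0.427 and 0.460. The library labelled Scr13 untreated replicate 1 was nearest to Scr16 untreated replicate 2, at 0.301, and the library labelled Scr16 untreated replicate 1 was nearest to Scr13 untreated replicate 2, at 0.340. In all, 5 of the 8 libraries had a library of the other clone as their nearest neighbor, 3 of them among the 4 untreated ones. Knockout and control libraries under the same treatment were 0.385 to 0.590 apart (32 pairs, median 0.468), and the 2 treatments of a control clone 0.391 to 0.579 (8 pairs, median 0.459). Scr16 doxorubicin replicate 1, the library with the fewest reads, stood farthest from the others, at a mean distance of 0.532.

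**Figure D2:**
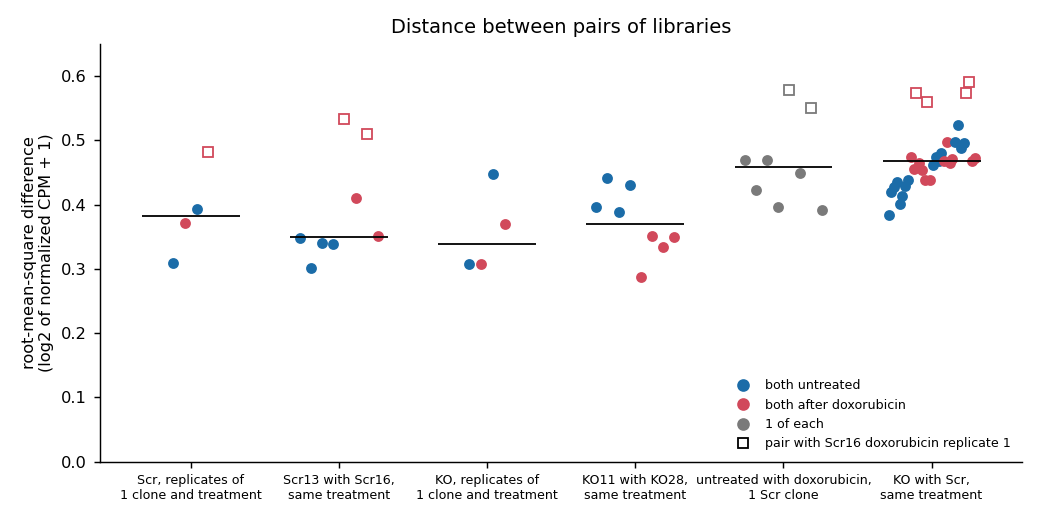
Root-mean-square difference between pairs of libraries (y axis, log2 of normalized CPM + 1), by kind of pair (x axis). Each point is a pair, blue for untreated, red for doxorubicin and gray for 1 of each, open squares are pairs with Scr16 doxorubicin replicate 1, and the line is the median; Scr13 and Scr16 pairs (0.301 to 0.533, median 0.350) overlap the replicate pairs (0.309 to 0.482, median 0.383) and reach beyond them at both ends.

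With all 8 libraries as labelled, 5 genes of 14378 (0.0348%) passed an adjusted p of 0.05 in limma, a linear model that shares the spread across genes. All 5 were lower in Scr16 (0.0348%) and none was higher (0%). Without a correction 1009 genes (7.02%) had a p under 0.05, 361 of them higher and 648 lower in Scr16. The excess of lower genes moved with base content: in the fifth of genes with the lowest GC content 67 were higher and 60 lower (median log2 difference 0.003), and in the fifth with the highest 56 were higher and 271 lower (median -0.06). It also moved with transcript length, with 94 higher and 95 lower in the fifth of shortest transcripts and 40 higher and 172 lower in the fifth of longest. The part of GC content and length in the clone difference was not tested. Within treatments, 1 gene passed in untreated cells (0.00696%), 2 genes after doxorubicin (0.0139%) and none for the interaction of clone and doxorubicin (0%, with 524 genes or 3.64% at an unadjusted p under 0.05; edgeR and DESeq2 also called none). Both clones' 2 replicates under a treatment lay apart from the other clone's in the same direction in both treatments for 932 genes (6.48%). Of these, 342 were higher and 590 lower in Scr16. With libraries interchangeable within a treatment, a share of 0.0556 of genes would lie apart in this way. The 95% interval of the clone difference lay inside a 2-fold change in either direction for 13455 genes, or 93.6%, and inside 1.5-fold for 9980 genes, or 69.4%. The median standard error was 0.133 on the log2 scale.

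Without the 2 untreated replicate 1 libraries, 128 genes passed the same test over the same 14378 genes (0.89%), 64 higher (0.445%) and 64 lower (0.445%) in Scr16. All 5 genes called with 8 libraries were among them, and 33 of the 128 differed at least 2-fold. edgeR called 99 genes from these 6 libraries, all of them among the 128, and DESeq2 called 197. Leaving out the 2 untreated replicate 2 libraries in their place left 4 genes. Within treatments and without the replicate 1 libraries, 6 genes passed in untreated cells (0.0417%), where 1 library a side remained and was taken to vary like the doxorubicin libraries, from which alone the spread came, 37 after doxorubicin (0.257%) and none for the interaction (0%, with 169 genes at an unadjusted p under 0.05). The doxorubicin libraries fitted alone, which hold neither of the 2 libraries, gave 47 genes, 24 higher and 23 lower in Scr16. Because the 2 libraries were left out on account of their levels, the 128 genes describe the other 6 libraries and are not an independent test of the clones.

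The libraries left out took no part in that fit, and their values were then placed by the nearer fitted clone level. Because they were left out on account of such levels, the placement is a description and not an independent check of their labels. Of the 128 genes, the library labelled Scr13 untreated replicate 1 was nearer Scr16 in 96 (75%) and the library labelled Scr16 untreated replicate 1 was nearer Scr13 in 87 (68.0%). Both lay on the other clone's side in 65 genes and both on their own side in 10. In the 5 genes called with all 8 libraries, Scr13 untreated replicate 1 was nearer Scr16 in 1. Scr16 untreated replicate 1 was nearer Scr13 in 0 of the 5, and both lay on their own side in 4. These 5 had been called with the 2 libraries as labelled. Over all 14378 genes tested the shares for the single libraries were 51.6% and 52.2%. Both lay on the other clone's side in 3012 of these genes and both on their own side in 2469.

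**Figure D3:**
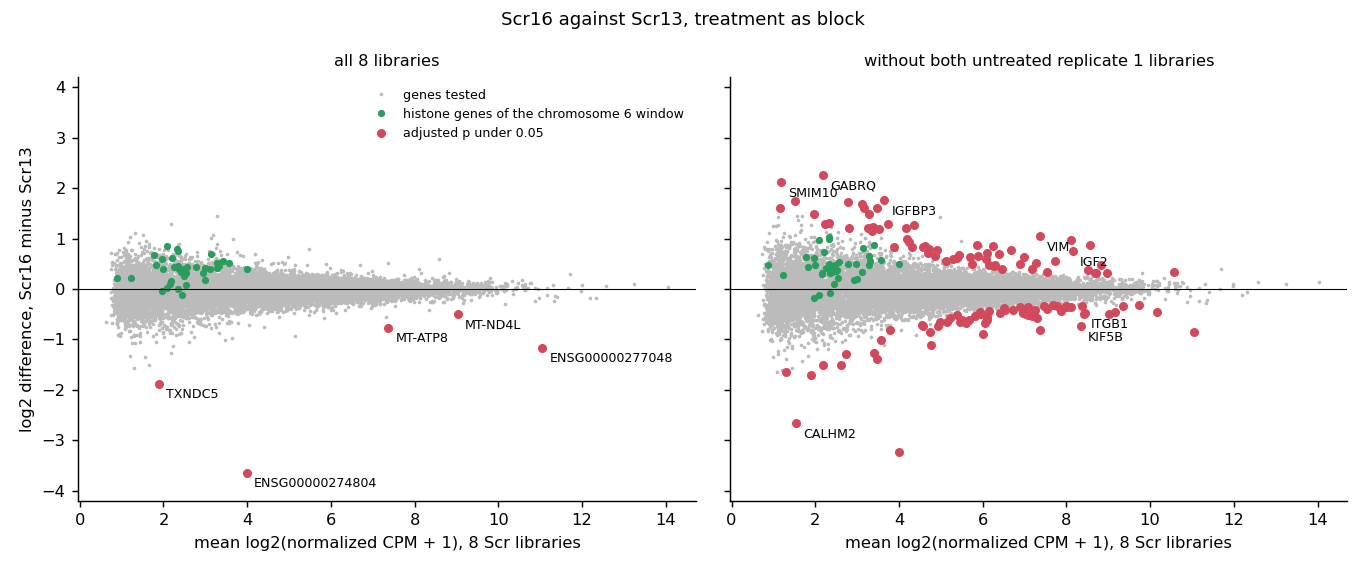
Log2 difference between Scr16 and Scr13 (y axis) against mean level (x axis, log2 of normalized CPM + 1 over the 8 libraries) for 14378 genes, with all 8 libraries (left) and without both untreated replicate 1 libraries (right). Red points passed an adjusted p of 0.05 in limma (5 on the left, 128 on the right) and green points are histone genes of a window on chromosome 6.

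The 5 genes called with all 8 libraries were 2 mitochondrial genes, an endoplasmic reticulum gene and 2 identifiers for which the tables used here give no symbol or position. ENSG00000274804 stood at 85.5, 129, 19.8 and 42.3 normalized CPM in Scr13 (untreated 1 and 2, doxorubicin 1 and 2) and at 1.96, 2.73, 4.94 and 5.32 in Scr16. All 4 Scr16 values were under the lowest Scr13 value. The log2 difference was -3.64 (SE 0.374, limma adjusted p = 0.000131), and it was -5.00 in untreated cells and -2.29 after doxorubicin. ENSG00000277048 stood at 3400, 2206, 2788 and 4836 in Scr13 and at 799, 1614, 1956 and 1597 in Scr16, again with no overlap. Its log2 difference was -1.16 (SE 0.182, limma adjusted p = 0.0212), and it passed in 5 of 8 refits with a single library removed but neither in edgeR (adjusted p = 0.0507) nor in DESeq2 (adjusted p = 0.273). Without the 2 untreated replicate 1 libraries the differences were -3.23 for ENSG00000274804 and -0.85 for ENSG00000277048. Both knockout clones were nearer Scr16 in both of these genes.

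TXNDC5, a protein disulfide isomerase that helps proteins fold in the endoplasmic reticulum (chr6:7881517-7910814, minus strand), stood at 4.80, 5.93, 8.32 and 5.87 normalized CPM in Scr13 and at 0.123, 0.284, 3.52 and 1.17 in Scr16. The groups did not overlap, and the 2 untreated Scr16 values were near the floor of 3 reads. The log2 difference was -1.88 (SE 0.302, limma adjusted p = 0.0217). Of the 4387 exonic bases of TXNDC5, 60.6% are shared with the readthrough gene BLOC1S5-TXNDC5, so the counting could split its reads between the genes. TXNDC5 passed in 3 of 8 refits with a single library removed (highest limma adjusted p = 0.213), not in edgeR (adjusted p = 0.252) and in DESeq2 (adjusted p = 8.97e-05), and the difference was -1.71 without the 2 untreated replicate 1 libraries. A group of 23 genes of protein folding in the endoplasmic reticulum was assembled after this value was seen, without TXNDC5 itself. The group had 0 genes called, beside 0.0348% of all genes tested, and a median log2 difference of 0.01.

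The mitochondrial genes were MT-ATP8, a subunit of ATP synthase, and MT-ND4L, a subunit of complex I. MT-ATP8 stood at 183, 224, 189 and 275 normalized CPM in Scr13 and at 118, 142, 136 and 111 in Scr16. Every Scr16 library was under every Scr13 library, with a log2 difference of -0.77 (SE 0.109, limma adjusted p = 0.00819). MT-ND4L stood at 534, 627, 595 and 747 in Scr13 and at 373, 463, 447 and 477 in Scr16, also with no overlap, with a log2 difference of -0.50 (SE 0.0837, limma adjusted p = 0.0267). MT-ND4L passed in 3 of 8 refits with a single library removed (highest limma adjusted p = 0.236), not in edgeR (adjusted p = 0.0656) and in DESeq2 (adjusted p = 3.88e-05), whereas MT-ATP8 passed in 7 of 8, in edgeR and in DESeq2 (adjusted p = 0.0238 and 0.0458). Without the 2 untreated replicate 1 libraries the differences were -0.81 for MT-ATP8 and -0.50 for MT-ND4L. Both knockout clones were nearer Scr13 in both genes. The 2 genes are shown because each shares its end with the next gene on the same transcript, and the capitals mark the bases that MT-ATP8 shares with MT-ATP6 (46 bases) and MT-ND4L with MT-ND4 (7 bases), at which reads cannot be given to 1 gene:

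MT-ATP8 (GRCh38 chrM:8366-8572, plus strand): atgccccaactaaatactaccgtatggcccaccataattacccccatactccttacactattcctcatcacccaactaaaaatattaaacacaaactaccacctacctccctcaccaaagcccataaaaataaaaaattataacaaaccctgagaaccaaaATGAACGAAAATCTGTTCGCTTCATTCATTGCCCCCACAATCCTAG

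MT-ND4L (GRCh38 chrM:10470-10766, plus strand): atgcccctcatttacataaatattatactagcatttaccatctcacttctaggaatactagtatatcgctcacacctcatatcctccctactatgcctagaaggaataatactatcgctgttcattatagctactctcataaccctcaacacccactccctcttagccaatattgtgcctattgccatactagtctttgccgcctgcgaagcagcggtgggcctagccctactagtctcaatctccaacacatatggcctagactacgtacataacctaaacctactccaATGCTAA

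Of the 13 mitochondrial protein-coding genes, 12 had a negative difference and 2 were called, beside 0.0348% of all genes tested. The median log2 difference was -0.18, beside -0.01 over all genes tested. Without the 2 libraries 3 were called, MT-ND6 with them, beside 0.89% of all genes tested, and the median was -0.15. MT-ATP8 made up 0.624%, 0.749%, 0.655% and 0.831% of the mitochondrial protein-coding signal in Scr13 and 0.495%, 0.539%, 0.455% and 0.386% in Scr16. The share taken by all mitochondrial genes was 4.19% to 5.83% of the reads in the 8 libraries. Nuclear subunits of ATP synthase (18 genes, median 0.07) and of complex I (33 genes, median -0.00) were groups assembled afterwards. They had 0 genes called with all 8 libraries, beside 0.0348% of all genes tested.

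**Figure D4:**
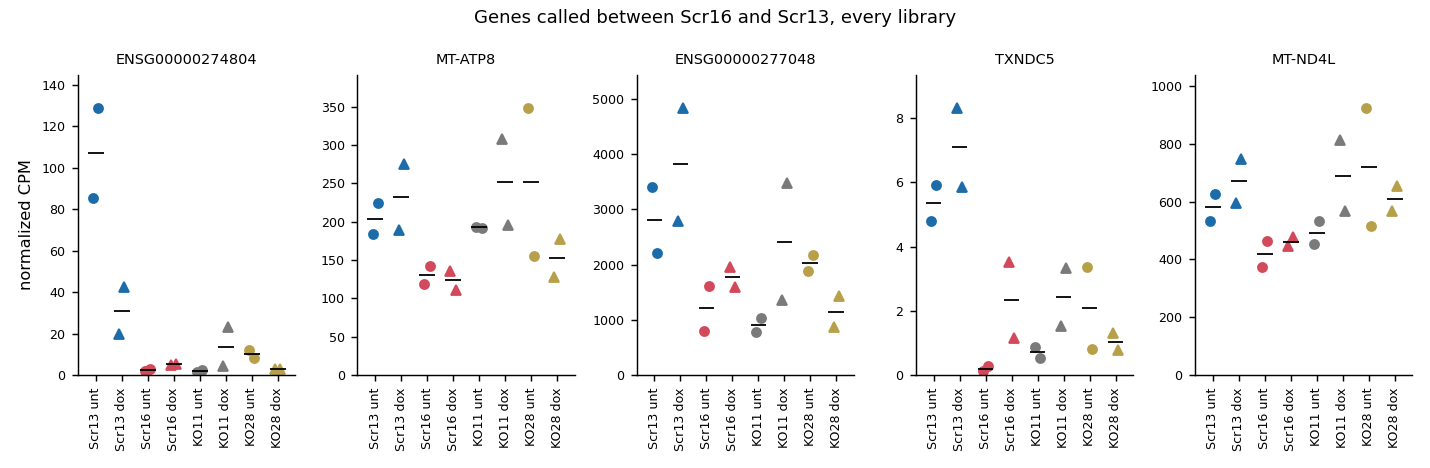
Levels of the 5 genes called with all 8 libraries (y axis, normalized CPM, from 0) in every library of the 4 clones (x axis; unt, untreated; dox, doxorubicin). Circles are untreated, triangles doxorubicin, and the line is the mean of 2 libraries; the Scr16 points lie under the Scr13 points in each panel.

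The genes described next were called only without the 2 untreated replicate 1 libraries, and they were picked after their values were seen. Log2 differences in this group are from the 6 remaining libraries. Where levels are given, they are from all 8 libraries, in the order untreated 1 and 2 and doxorubicin 1 and 2. Among receptors and signaling genes, ARHGAP36, a negative regulator of protein kinase A, had the smallest p, with a log2 difference of 0.98 (SE 0.0895, limma adjusted p = 2.55e-06). It was at 448, 257, 154 and 186 normalized CPM in Scr13 and at 177, 425, 384 and 349 in Scr16. CHRM3 and CHRM2, muscarinic acetylcholine receptors, were higher in Scr16 by 1.68 and 0.85. CHRM3 was at 11.1, 3.74, 4.34 and 3.72 in Scr13 and at 5.03, 15.9, 16.6 and 12.1 in Scr16. In ARHGAP36 and CHRM3 the untreated replicate 1 libraries were again on the other clone's side.

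IGF2, an imprinted fetal growth factor, was higher by 0.75, with 273, 139, 336 and 331 normalized CPM in Scr13 and 134, 270, 540 and 508 in Scr16. BMP7, a ligand of the BMP pathway, was higher by 1.28, with 23.9, 11.7, 13.4 and 16.8 in Scr13 and 7.43, 29.2, 36.3 and 40.2 in Scr16. IGFBP3, which binds insulin-like growth factors outside the cell, was higher by 1.76, with 27.5, 4.43, 6.89 and 4.16 in Scr13 and 10.4, 17.4, 20.8 and 20.4 in Scr16. In all 3 genes Scr16 untreated replicate 2 was above Scr13 untreated replicate 2, whereas the order of the 2 replicate 1 libraries was the reverse. DKK1, a secreted inhibitor of Wnt signaling, was higher by 0.70, and the receptors PDGFRA and MET were higher by 1.61 and 1.29 (limma adjusted p = 0.00699 and 0.0487).

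BASP1, a growth cone membrane protein, was lower in Scr16 by -0.90, with 45.3, 91.0, 82.7 and 82.8 normalized CPM in Scr13 and 96.0, 42.3, 53.6 and 40.9 in Scr16. CNTN1, a neuronal adhesion molecule, was higher by 0.56. ST8SIA1, which makes the ganglioside GD3 on the route to GD2, was lower by -1.27, with 7.20, 18.3, 11.5 and 13.2 in Scr13 and 21.2, 6.36, 4.66 and 4.87 in Scr16. GNG8, a G protein gamma subunit, was lower by -1.11. Across the 64 genes higher in Scr16, both knockout clones were nearer Scr13 in 36 and nearer Scr16 in 18. Across the 64 lower genes these counts were 33 and 21. The same counts were not made over all genes tested, so they cannot be read as a likeness to either control clone.

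Some genes called without the 2 libraries lay near each other, and those named here were picked after their values were seen. On chromosome 7, GPC2, ACHE and VGF were lower in Scr16 by -0.42, -0.66 and -0.45, on chromosome X TMEM35A and DRP2 were higher by 0.78 and 1.21, and on chromosome 19 RPL36 and DUS3L were higher by 0.32 and 0.66. On the short arm of chromosome 10, ARHGAP12 (chr10:31805404-31928876), a GTPase-activating protein, KIF5B (chr10:32009010-32056431) and ITGB1 (chr10:32900319-33005792) were lower in Scr16 by -0.57, -0.74 and -0.50 (limma adjusted p = 0.0346, 6.51e-06 and 0.000647). EPC1 (chr10:32267751-32378798), a subunit of a histone acetyltransferase complex that lies between KIF5B and ITGB1, had a value of -0.36 and was not called (limma adjusted p = 0.288). The pseudogene PPIAP31, also between them, had a value of 0.83 (limma adjusted p = 0.379), and NRP1, the next tested gene after ITGB1, a value of 0.21 (limma adjusted p = 0.856). The flanking genes ZEB1, a transcription factor of mesenchymal cells (chr10:31318495-31529814), and PARD3, a polarity gene (chr10:34109560-34815325), had values of 0.04 and -0.11 (limma adjusted p = 0.925 and 0.766). With all 8 libraries none of these was called. ARHGAP12 stood at 29.1, 42.9, 46.5 and 44.0 normalized CPM in Scr13 and at 43.8, 29.1, 32.6 and 27.5 in Scr16. The 8 knockout libraries had 360 to 422 normalized CPM of KIF5B and 408 to 489 of ITGB1, nearer the Scr13 than the Scr16 doxorubicin libraries in both genes.

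Windows of 50 neighboring tested genes were scanned along each chromosome, 271 in all, and a window was described when its median log2 difference was at least 0.2 from that of all genes. Without the 2 libraries 2 windows met this, and with all 8 libraries 1 did. The window that was added was chr5:174045604-178933212, with a median of -0.22, 40 of 50 genes negative and 5 called, all lower in Scr16. CPLX2, which controls release of synaptic vesicles, was lower by -0.43, and UNC5A, a netrin receptor, by -0.51. Relative to the mean of its treatment, the median gene of this window was at -0.07, 0.10, 0.06 and 0.10 in the libraries labelled Scr13 and at 0.08, -0.14, -0.06 and -0.15 in those labelled Scr16. The untreated replicate 1 libraries thus had the sign of the other clone. SH3PXD2B, a scaffold protein of podosomes encoded nearer the centromere on the same arm, was lower by -0.53, with 126, 174, 161 and 176 normalized CPM in Scr13 and 178, 118, 120 and 115 in Scr16. DNA was not measured here, so copy number was not tested.

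The window found with and without the 2 libraries was the large histone cluster, chr6:26103876-27893843, with medians of 0.33 and 0.35. It had 0 genes called in either fit, beside 0.0348% and 0.89% of all genes tested. Its 38 histone genes encode replication-dependent histones, whose messages mostly lack a poly(A) tail. Of these, 35 had a positive difference with all 8 libraries, the median was 0.40, and the smallest limma adjusted p was 0.583. The mean of their log2 levels was 2.44, 2.28, 1.83 and 2.69 in Scr13 and 2.62, 2.74, 2.78 and 2.62 in Scr16, so Scr13 doxorubicin replicates 1 and 2 were farther apart than the means of the clones. The other 12 genes of the window had a median of -0.13.

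The genes that the study followed, which are regulators of the cell cycle and of DNA damage, were not called between the control clones. Of its 22 tested genes, 0 were called with all 8 libraries, beside 0.0348% of all genes tested, and 0 without the 2 libraries, beside 0.89%. At such shares a count of 0 says little about these genes. The median log2 differences were -0.00 and -0.03. Part of this list came from the study's RNA sequencing of these samples. CREBBP, in which that sequencing found no difference, was followed for its role as a coactivator. FOXM1, a transcription factor of late cell cycle genes, was at 305, 361, 277 and 333 normalized CPM in Scr13 and at 331, 311, 312 and 320 in Scr16, and the log2 difference was 0.00 with a 95% interval of -0.15 to 0.16. E2F1, which drives entry into S phase, had a value of -0.18. CDKN1A, the p21 inhibitor of cyclin-dependent kinases, was at 75.1, 46.9, 340 and 365 in Scr13 and at 42.3, 63.8, 304 and 340 in Scr16, with a difference of -0.16, and 0.06 without the 2 libraries. The groups overlapped in FOXM1 and, in untreated cells, in CDKN1A.

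CCNB1, the cyclin of mitotic entry, and PLK1, a mitotic kinase, had the lowest p-values of the 22 genes. CCNB1 was at 123, 137, 103 and 103 normalized CPM in Scr13 and at 141, 126, 153 and 140 in Scr16, a difference of 0.27 with a 95% interval of 0.08 to 0.46 (limma adjusted p = 0.606), and 0.29 without the 2 libraries. PLK1 was at 121, 137, 118 and 116 in Scr13 and at 142, 120, 165 and 161 in Scr16, a difference of 0.24 with an interval of 0.05 to 0.43 (limma adjusted p = 0.675), and 0.25 without them. In both genes the clones overlapped in untreated cells and not after doxorubicin, where the differences were 0.50 for CCNB1 and 0.47 for PLK1 (limma adjusted p = 0.296 for both). E2F1 had a value of -0.33 after doxorubicin (limma adjusted p = 0.465). All 22 intervals lay inside 2-fold and 21 inside 1.5-fold, LIN37 being the exception. Between knockout and control clones, a comparison that uses the same Scr libraries, the values were 1.20 for CDKN1A, -0.31 for CCNB1, -0.32 for PLK1, -0.20 for FOXM1 and -0.24 for E2F1, and 1827 of 15325 genes (11.9%) were called. The knockout comparison had 8 libraries a side and no term for clone, so libraries of the same clone were treated as replicates. Its count and intervals are therefore not on the same footing as those between 2 clones. Between KO28 and KO11, fitted like the control pair on 8 other libraries, 20 of 14513 genes (0.138%) were called, 17 higher and 3 lower in KO28.

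**Figure D5:**
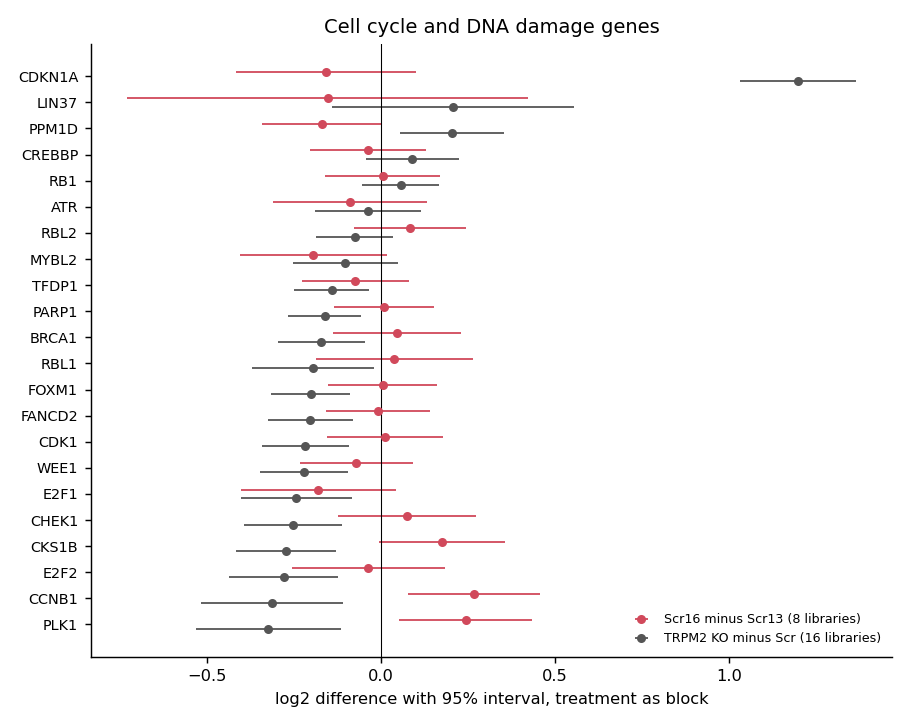
Log2 differences with 95% intervals (x axis) for the 22 tested genes of the study (y axis), Scr16 minus Scr13 over 8 libraries as labelled (red) and TRPM2 KO minus Scr over 16 libraries (gray), which share the Scr libraries. CDKN1A is at -0.16 between the control clones and at 1.20 between knockout and control. The gray intervals come from a fit without a term for clone, which treats libraries of the same clone as replicates.

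In lists of genes by function, none had a member called with all 8 libraries and treatment as block, apart from the mitochondrial genes above. In that fit 0.0348% of all genes tested were called. The counts that follow are from the fit without the 2 libraries, in which 0.445% of all genes tested were higher and 0.445% lower. Of 23 adrenergic factors 2 were higher and 0 lower, with a list median of 0.11: TFAP2B by 0.48 and INSM2 by 0.55 (limma adjusted p = 0.000791 and 0.0496). TFAP2B, a transcription factor of sympathetic neurons, was at 519, 406, 361 and 350 normalized CPM in Scr13 and at 464, 552, 471 and 540 in Scr16. Of 18 catecholamine genes 2 were higher and 0 lower, with a median of 0.19, namely DBH by 0.33 and MAOB, which breaks down amines, by 1.72 (limma adjusted p = 0.0276 and 0.00152). MAOB was at 13.9, 2.59, 2.20 and 3.85 in Scr13 and at 2.21, 12.3, 10.4 and 12.3 in Scr16.

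Of 19 mesenchymal markers 1 was higher and 0 lower, with a median of 0.05. This was VIM, an intermediate filament, at 302, 87.3, 135 and 99.5 normalized CPM in Scr13 and at 146, 218, 239 and 199 in Scr16, with a difference of 1.04 without the 2 libraries (limma adjusted p = 6.51e-06) and of 0.52 with all 8 (limma adjusted p = 0.711). The 6 libraries did not overlap, and the 8 knockout libraries were at 321 to 430. FN1, a matrix protein that was not called and was picked after its values were seen, was at 160, 36.7, 50.5 and 26.4 in Scr13 and at 87.3, 61.3, 105 and 46.7 in Scr16. Of the 10 fibroblast markers listed 5 were tested, of which 1 was higher and 0 lower, with a median of 1.22; it was PDGFRA, which is also in the list of receptors. The summed level of the fibroblast list was 355, 190, 176 and 175 in Scr13 and 247, 225, 237 and 200 in Scr16, with THY1 as its most abundant gene, and its part in the result was not tested. COL3A1, a fibrillar collagen of that list picked in the same way, was at 139, 10.8, 29.6 and 6.88 in Scr13 and at 41.1, 30.3, 83.9 and 19.8 in Scr16. COL1A1 and THY1, also picked so, had log2 differences of 0.68 and -0.07 with all 8 libraries (limma adjusted p = 0.734 and 0.910). LUM, picked likewise, was too low to be tested. Its levels were 3.15, 0.691, 0.535 and 0.631 in Scr13 and 0.921, 0.511, 0.190 and 0.325 in Scr16.

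Guidance genes (58 tested) had 3 higher and 2 lower, with SEMA3C by 0.87, SEMA5A by 0.83 and PLXNA2 by -0.46 among them. Matrix genes (42 tested) had 1 higher and 2 lower, LOX by 1.20 and COL9A2 by -1.39 among them. Voltage-gated channels (49 tested) had 1 higher, KCNH1 by 0.60, and 2 lower, the calcium channel CACNA1G by -0.86 and the potassium channel KCNT1 by -0.62, with a list median of -0.16. Imprinted genes (32 tested) had 3 higher and 0 lower, which were IGF2, NNAT by 0.49 and INPP5F by 0.63. Of 27 drug handling genes, ABCB1, the efflux pump that carries doxorubicin out of cells, was higher by 0.37 (limma adjusted p = 0.0284); it was at 434, 321, 297 and 323 normalized CPM in Scr13 and at 335, 452, 346 and 422 in Scr16. Of 18 interferon-stimulated genes OAS3 was higher by 0.65, of 34 clustered protocadherins PCDHB15 was lower by -1.29, and of 233 zinc finger genes of chromosome 19 ZNF317 was higher by 0.48. Notch, G1/S, G2/M, ATF4, hypoxia, cholesterol, retinoic acid, HOX, MHC class I and cancer-testis lists had 0 called in either fit. Over all genes tested the median was -0.01 in both fits.

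The response to doxorubicin, a topoisomerase II poison that damages DNA, was shared in part by the control clones. With all 8 libraries 593 genes (4.12%) responded in Scr13, 396 up and 197 down, and 406 (2.82%) in Scr16, 299 up and 107 down. The genes called in both clones made up 44.4% of the Scr13 genes and 64.8% of the Scr16 genes, and all had the same direction. Of the 736 genes called in either clone, 720 had the same sign in both. The clones share no library in these contrasts. Without the untreated replicate 1 libraries each clone's response rests on 1 untreated library, so no counts of calls are given for that fit. Of 29 tested p53 targets, 26 rose in Scr13 and 24 in Scr16, with median responses of 1.37 and 1.10. Without the 2 libraries the median responses were 1.51 and 1.06. The response was larger in Scr13 for 25 of the 29 with all 8 libraries and for 26 without the 2, beside 48.2% and 50.1% of all genes tested, and none passed the interaction test. Of 264 tested genes that were called at least 2-fold higher after doxorubicin in the knockout clones, 163 (61.7%) had a smaller response in Scr16. Their median clone difference after doxorubicin was -0.25. Of 33 tested genes called at least 2-fold lower there, 23 (69.7%) had a less negative response in Scr16. The median clone difference of these 33 after doxorubicin was 0.35.

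After doxorubicin itself, in the fit over all 8 libraries, whose spread includes that of the 2 libraries, the p53 targets had a median clone difference of -0.28, 24 of 29 were negative, beside 51.2% of all genes tested, and 14 had an unadjusted p under 0.05, beside 10.1% of all genes; 0 were called. GDF15, a secreted stress factor that was picked after its values were seen, was at 4.76, 2.48, 148 and 119 normalized CPM in Scr13 and at 4.91, 4.03, 66.4 and 86.9 in Scr16. Both Scr16 doxorubicin values were under both Scr13 ones, and the limma adjusted p was 0.322. COL9A2, a cartilage collagen chain, was called after doxorubicin with all 8 libraries, with a difference of -1.85 (limma adjusted p = 0.0130). It was at 7.87, 9.38, 25.4 and 24.1 in Scr13 and at 8.65, 6.53, 5.13 and 7.27 in Scr16, and both Scr13 doxorubicin values were above the other 6. The interaction of COL9A2 did not pass (limma adjusted p = 0.999). Leaving out Scr13 doxorubicin replicate 2 or Scr16 doxorubicin replicate 1 left 0 genes called after doxorubicin. Without the 2 libraries it was also lower in Scr16 over both treatments.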

How the data were processed

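RNA from 4 SH-SY5Y clones was sequenced by the authors with a directional poly(A) kit; the submitters' processing notes name bcl2fastq, HISAT2 2.1.0, HTSeq, edgeR and the build GRCh38. The deposited values are a signal per gene and library, edgeR-normalized CPM, for 26410 genes in a table for each treatment; the tables also hold the authors' fold changes and p-values, which were not used. Dividing by the smallest step recovered whole reads for 100% of values (largest deviation 8.11e-05), and the scaling factors (geometric mean 1.00 over all 16 libraries) showed that the 2 tables had been normalized together. No value column was left without a sample (0). Symbols and positions were found for 95.9% of identifiers.

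Genes that reached 1 normalized CPM in 4 or more of the 8 Scr libraries were tested with limma 3.58.1 (R 4.3.3) on log2(normalized CPM + 1), with an abundance trend, treatment as block and Benjamini-Hochberg adjustment at 0.05. Fold changes are on that scale, which understates the change of low genes. edgeR 4.0.16 and DESeq2 1.42.0 were run on the recovered reads. Contrasts within a treatment came from a fit with 1 mean per clone and treatment. Floors of 3 reads and 95% intervals cover the spread between libraries or counting error only. The fits were tested on simulated data. The members, lists and tests were chosen with earlier results of these data known. Named genes were the study's genes, up to 12 called rises and 12 falls, called members of lists and called genes of windows; genes named otherwise are said to have been picked after their values were seen. Same-numbered replicates of the clones were not paired by any label, and the correlation of their deviations was -0.116 in untreated cells and 0.0559 after doxorubicin. Some genes are not reported here.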

Additional observations from a re-analysis of the deposited data

Results flagged for a closer look

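ENSG00000274804 was at 19.8 and 42.3 normalized CPM after doxorubicin in Scr13, under both untreated values, and at 4.94 and 5.32 in Scr16, above both untreated values. The log2 responses differed by 2.70 (limma adjusted p = 0.0748), which did not pass the threshold.

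PLK1 was at 118 and 116 normalized CPM after doxorubicin in Scr13, under both untreated values, and at 165 and 161 in Scr16, above both untreated values. The responses differed by 0.45 on the log2 scale (limma adjusted p = 0.999). TRPM2 had 3 and 2 reads in untreated Scr13 and 1 and 1 after doxorubicin, and 0 and 0 in untreated Scr16 and 14 and 6 after doxorubicin. Its responses differed by 0.92 on the log2 scale, and this difference was not tested. All 3 differences use the untreated replicate 1 libraries.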

How the results depend on the processing

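The count of genes between the control clones depended on which libraries entered. Both untreated replicate 1 libraries left out gave 128 genes with treatment as block, 6 in untreated cells and 37 after doxorubicin; both untreated replicate 2 libraries left out gave 12 in untreated cells, 36 after doxorubicin and 43 for the interaction; the doxorubicin libraries alone gave 47. These alternatives were chosen after seeing the data. Leaving out 1 library gave 1 to 32 genes with treatment as block (32 without Scr13 untreated replicate 1, 8 without Scr16 untreated replicate 1, 3 without Scr13 untreated replicate 2 or Scr13 doxorubicin replicate 2, and 1 without Scr16 doxorubicin replicate 2). It gave 1 to 5 genes in untreated cells (5 without Scr16 untreated replicate 2), 0 to 38 after doxorubicin (38 without Scr16 doxorubicin replicate 2, 16 without either untreated Scr13 library), and 0 to 5 for the interaction (5 without Scr13 untreated replicate 2).

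With treatment as block, edgeR, the 16-library fit, an adjusted p of 0.01 and Bonferroni each called 2, DESeq2 called 7, and no filter on low values and limma without trend each called 0. In untreated cells DESeq2 called 4. After doxorubicin DESeq2 called 23, no filter 0 and the 16-library fit 1. Between KO28 and KO11 edgeR called 10, and leaving out 1 library gave 3 to 93 (93 without KO28 doxorubicin replicate 1). With the replicate number as a block 5 genes were called with treatment as block (4 of them the same, MT-ND6 in place of ENSG00000277048), 1 in untreated cells, 7 after doxorubicin and 1 for the interaction. Crossing the numbers of the untreated Scr16 libraries in that block gave 10 genes with treatment as block and 11 in untreated cells. The causes were not tested.

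Of 99 values of the 5 called genes under alternatives, 66 passed the threshold, 33 did not and 0 changed sign; edgeR called MT-ATP8 and ENSG00000274804 of the 5. Of the 22 study genes 9 changed sign under some alternative and 0 were called. Precision was lower in genes of low level, with a median standard error of 0.297 in the 2876 genes of lowest mean level and 0.0753 in the 2876 of highest; the part of depth in this was not tested.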
